A study of Mus musculus with 22 samples.

Results

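The cyclin-dependent kinase (CDK) inhibitors and the RB family are the genes through which a senescent cell stops dividing, and their transcripts were followed in mouse embryonic fibroblasts (MEFs) with and without the S6 kinases. The genes were chosen by name, with earlier results of these data known. They were the INK4 inhibitors *Cdkn2a*, *Cdkn2b*, *Cdkn2c* and *Cdkn2d*, the CIP/KIP inhibitors *Cdkn1a* and *Cdkn1b*, and the RB family *Rb1*, *Rbl1* and *Rbl2*. Of these 9 genes, 8 were matched among the 55401 gene identifiers of the count table, and *Cdkn2d* was not analysed here. The question was whether the transcripts of the arrest genes depend on S6K1, or on S6K1 and S6K2 together, in late-passage MEFs.

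MEFs are primary cells grown from mid-gestation C57BL/6 embryos, and under serial passage in atmospheric oxygen they stop dividing. RNA-seq was done on 22 libraries in 6 groups, without any agent added. The S6K1 set held 4 libraries of S6K1 WT MEFs at passage 3 (early WT), 4 at passage 8 (late WT) and 3 of S6K1 KO MEFs at passage 8 (late KO), and its WT and KO embryos were littermates from mice heterozygous for *S6K1*. The S6K1/S6K2 set held 4 libraries of WT MEFs at passage 3, 4 at passage 8 and 3 of S6K1/S6K2 double KO MEFs at passage 8 (late DKO). The deletions were in the germ line. For its MEF growth and expression assays, a figure legend of the study describes replicates as taken from different embryos. Its RNA-seq methods do not state this for the libraries used here. DKO embryos came from parents that lacked *S6K2*, whereas their WT controls came from WT mothers at an earlier stage of breeding, so genotype and litter cannot be told apart in that set. The labels do not say which early and late libraries came from the same embryo, and neither set held KO or DKO MEFs at passage 3. Comparisons of late KO or late DKO with early WT thus change passage and genotype together, which cannot be told apart there. The paper reports that S6K1 KO and DKO MEFs arrested earlier than WT MEFs. Equal passage therefore need not mean an equal time in arrest.

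CDKs bound to cyclins phosphorylate the RB family proteins pRB, p107 and p130, which releases E2F transcription factors and lets a cell enter S phase. INK4 proteins bind CDK4 and CDK6, while CIP/KIP proteins bind CDK complexes more broadly, and both keep the RB family in its repressive form. In mouse fibroblasts the *Cdkn2a* locus is known as the main barrier to unlimited passage, because its 2 products act on both arms of arrest. Its p16Ink4a product restrains CDK4 and CDK6, and its p19Arf product stabilises p53, which in turn induces *Cdkn1a*.

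*Cdkn2a* (ENSMUSG00000044303.6) is a minus-strand gene of chromosome 4 at 89274473 to 89294619 (build GRCm38.p6), next to *Cdkn2b* at 89306289 to 89311032. RefSeq gives it 2 starts, and the counts of both transcripts were summed in 1 value per library, so p19Arf and p16Ink4a were not separated. The 250 bases before each start are shown because *Cdkn2a* was the gene that changed most, and those before the start of *Rbl1* because it held the other E2F match among the promoters searched, which did not include *Rb1*. Sequences are from RefSeq, 5′ to 3′ on the strand of the gene, and capitals mark the match.
*Cdkn2a*, upstream start (p19Arf), chr4:89294620-89294869, minus strand: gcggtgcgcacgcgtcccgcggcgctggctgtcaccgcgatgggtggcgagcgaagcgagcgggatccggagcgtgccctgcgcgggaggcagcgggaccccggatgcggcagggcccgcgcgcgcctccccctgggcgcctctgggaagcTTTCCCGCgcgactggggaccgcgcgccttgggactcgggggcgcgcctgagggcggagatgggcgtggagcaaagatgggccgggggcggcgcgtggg
*Cdkn2a*, downstream start (p16Ink4a), chr4:89282193-89282442, minus strand: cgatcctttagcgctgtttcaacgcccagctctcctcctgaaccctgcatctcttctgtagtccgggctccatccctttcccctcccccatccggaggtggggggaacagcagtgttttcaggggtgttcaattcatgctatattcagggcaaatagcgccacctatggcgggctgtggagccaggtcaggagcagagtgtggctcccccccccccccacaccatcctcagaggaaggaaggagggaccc
*Rbl1*, chr2:157204535-157204784, minus strand: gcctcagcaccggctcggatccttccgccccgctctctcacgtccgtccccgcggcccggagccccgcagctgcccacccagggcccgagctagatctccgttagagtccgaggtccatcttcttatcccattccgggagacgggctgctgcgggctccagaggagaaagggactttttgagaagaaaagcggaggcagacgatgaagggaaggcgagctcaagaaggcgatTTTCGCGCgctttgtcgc
The letters searched were TTTCCCGC, TTTCGCGC, TTTGCCGC and TTTGGCGC for E2F and TTTGAA for the cell cycle homology region (CHR) that the DREAM complex binds, on both strands, from 250 bases before to 50 bases after each start. The upstream *Cdkn2a* window and that of *Rbl1* each held 1 E2F match, the downstream *Cdkn2a* window none. Of 32851 promoter windows of this length, 2.26% held an E2F match and 17.9% a CHR match. The windows of *Cdkn2b* and *Rbl2* each held 1 CHR match, and those of *Cdkn2c*, *Cdkn1a* and *Cdkn1b* held neither. A match is a run of letters, and binding was not measured.

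Counts were scaled to counts per 1000000 counts of the library (CPM) by edgeR's TMM method, over library totals of 10742454 to 17314832 counts (median 14651363.5). Of the fibroblast markers, whose summed level was 19683 to 39971 CPM in all libraries, all 10 were detected in each group. The 19 macrophage markers summed to 469 to 1912 CPM in early WT, 5244 to 12064 CPM in late WT, 3489 to 4742 CPM in late KO and 834 to 3191 CPM in late DKO libraries. Summed macrophage transcripts were therefore higher in late than in early WT, and lower in late KO and late DKO than in late WT. With edgeR, 18 of 19 markers were called for late DKO against late WT (4.78% of all genes). For late KO against late WT 0 of 19 were called (0.0425% of all genes). The part of macrophage transcripts in the results was not tested. In bulk RNA, fewer cells of a type and less RNA per cell cannot be told apart. The targeted genes had their lowest means in the groups labelled as lacking them. *Rps6kb1*, which encodes S6K1, was at 20.0 ± 5.07 CPM (SD, n = 3) in late KO and 23.9 ± 4.03 CPM (SD, n = 3) in late DKO, against 63.5 ± 9.16 and 73.8 ± 10.6 CPM (SD, n = 4 each) in the late WT libraries of the same sets. *Rps6kb2*, which encodes S6K2, averaged 0.812 ± 0.478 CPM in late DKO (SD, n = 3), while late WT had 13.2 ± 2.48 CPM (SD, n = 4). Both genes were also lower with passage in WT of the S6K1 set, *Rps6kb1* by a log2 fold change of −0.53 (edgeR adjusted *P* = 0.0498) and *Rps6kb2* by −0.68 (edgeR adjusted *P* = 0.0389). In WT of the other set the values were −0.11 and −0.46, and neither passed. Y-linked genes were expressed in 2 of 4 early WT, 1 of 4 late WT and 3 of 3 late KO libraries of the S6K1 set, and in 2 of 4, 3 of 4 and 1 of 3 libraries of the S6K1/S6K2 set, so embryo sex was unevenly spread.

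Per kilobase of exon, the 8 genes spanned a wide range of levels. *Cdkn2a* and *Cdkn1a*, which encodes p21, stood highest, with medians over the 22 libraries of 295 and 278 CPM per kb, and *Cdkn2b*, which encodes p15Ink4b, followed at 98.3 CPM per kb. *Cdkn1b*, which encodes p27, was at 6.84 CPM per kb and *Cdkn2c*, which encodes p18Ink4c, at 5.72 CPM per kb. The RB family was lower still, with *Rbl2* (p130) at 3.09, *Rb1* (pRB) at 2.96 and *Rbl1* (p107) at 1.17 CPM per kb. The order of genes on this scale follows the exon lengths of 1 annotation and does not bear on the comparisons of a gene between groups.

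**Figure D1:**
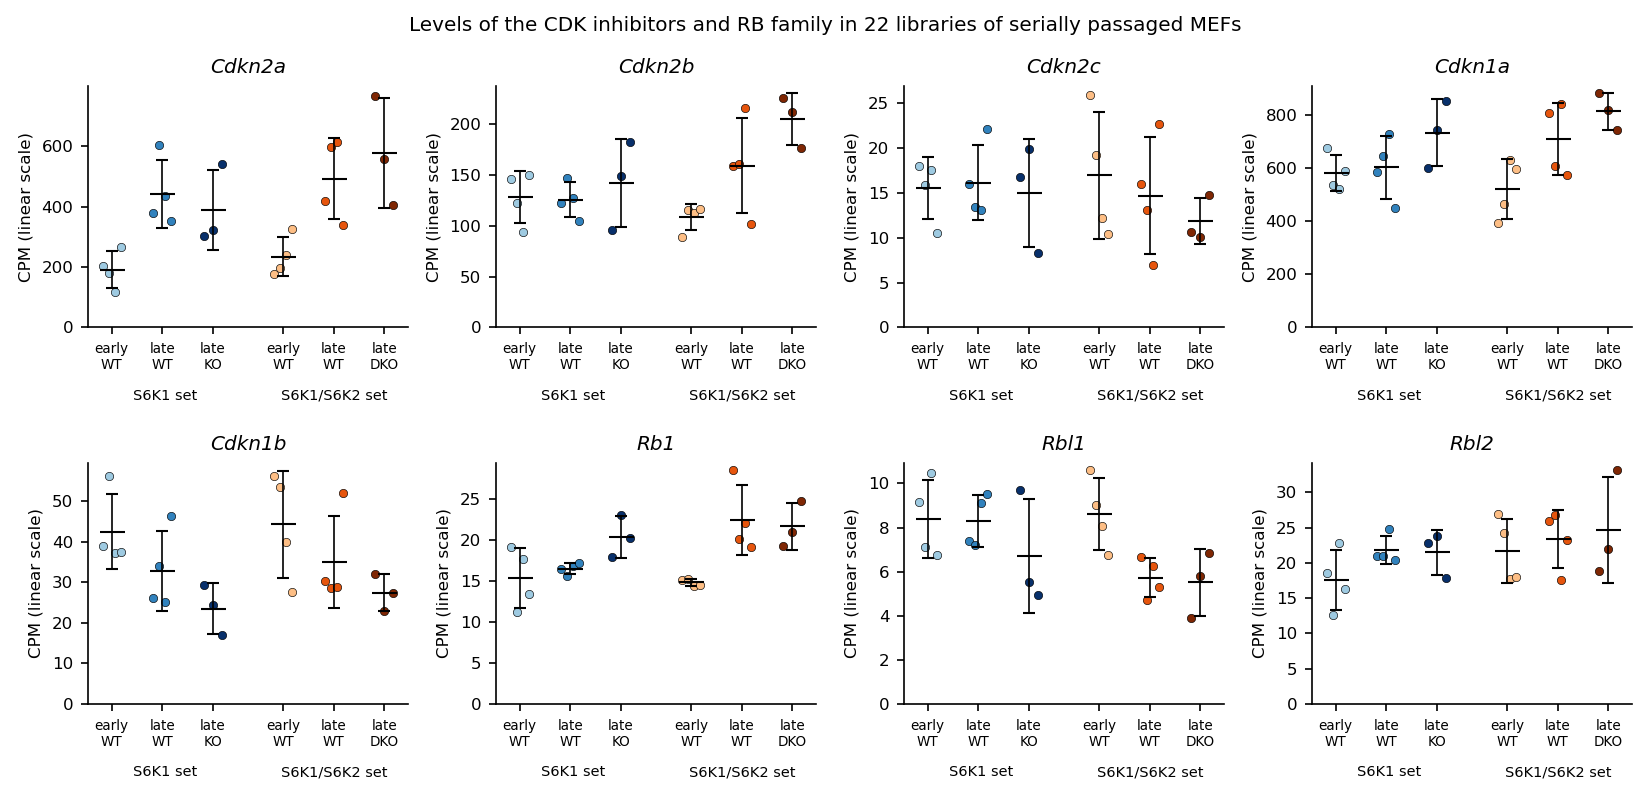
Level of each gene (CPM, linear scale from 0) in the 22 libraries, 1 point per library, with the mean and SD of each group as a bar. *Cdkn2a* sits between 118 and 324 CPM in the early WT libraries and between 304 and 766 CPM in the late libraries of all genotypes.

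*Cdkn2a* was higher at passage 8 than at passage 3 in WT MEFs of both sets. In the S6K1 set it was at 202, 180, 118 and 265 CPM in the 4 early WT libraries and at 380, 604, 433 and 351 CPM in the 4 late WT libraries. Every late library was above every early library. Late WT exceeded early WT 2.30-fold (log2 fold change 1.20, SE 0.27, 95% CI 0.61 to 1.80, edgeR adjusted *P* = 0.0137). The S6K1/S6K2 set gave 178, 196, 239 and 324 CPM in early WT and 419, 597, 615 and 340 CPM in late WT libraries, again without overlap. Late WT was 1.10 higher on the log2 scale (SE 0.25, 95% CI 0.55 to 1.66, edgeR adjusted *P* = 0.0156), 2.15-fold. The call of the S6K1 set held when any 1 of the 11 libraries was left out. That of the S6K1/S6K2 set held without 8 of the 11 and was lost without early WT replicate 1 (edgeR adjusted *P* = 0.0594), early WT replicate 2 (edgeR adjusted *P* = 0.0604) or, just past the threshold, late WT replicate 3.

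*Cdkn2a* levels of late KO and late DKO MEFs overlapped those of their late WT controls, and neither difference passed. The 3 late KO libraries were at 304, 321 and 542 CPM, and the 3 late DKO libraries at 766, 557 and 405 CPM. Of the late KO libraries 2 were below the late WT range, and of the late DKO libraries 1 was above it. The log2 fold change against late WT was −0.19 (95% CI −0.82 to 0.45, edgeR adjusted *P* = 0.861) for KO and 0.21 (95% CI −0.38 to 0.80, edgeR adjusted *P* = 0.746) for DKO. These intervals run from 0.565-fold to 1.37-fold for KO and from 0.77-fold to 1.74-fold for DKO. With 3 libraries against 4, changes within these ranges were not excluded. Against early WT, *Cdkn2a* was higher in late DKO (log2 fold change 1.31, SE 0.27, edgeR adjusted *P* = 0.00781), also without any 1 of the 11 libraries. It was higher in late KO than in early WT too (log2 fold change 1.02, SE 0.29, edgeR adjusted *P* = 0.0431), but not with the Y-linked genes as a covariate (edgeR adjusted *P* = 0.0506) or with only the 2 groups compared in the fit (edgeR adjusted *P* = 0.0726). All 3 late KO libraries expressed Y-linked genes, against 2 of 4 early WT libraries. That KO call was lost without early WT replicate 2 or 3, late WT replicate 1 or 4, or any 1 of the 3 KO libraries, with adjusted *P* values of 0.0310 to 0.193 over the 11 fits (edgeR). Its log2 fold change in those fits was 0.71 to 1.22. Comparisons of a set with early WT share the same early WT libraries, and those with late WT the same late WT libraries, so they are not independent. Summed macrophage markers were higher in every late WT than in every early WT library of both sets. In late DKO they were within the early WT range of that set in 2 of 3 libraries and above it, at 3191 CPM, in 1. Their part in the *Cdkn2a* result was not tested.

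**Figure D2:**
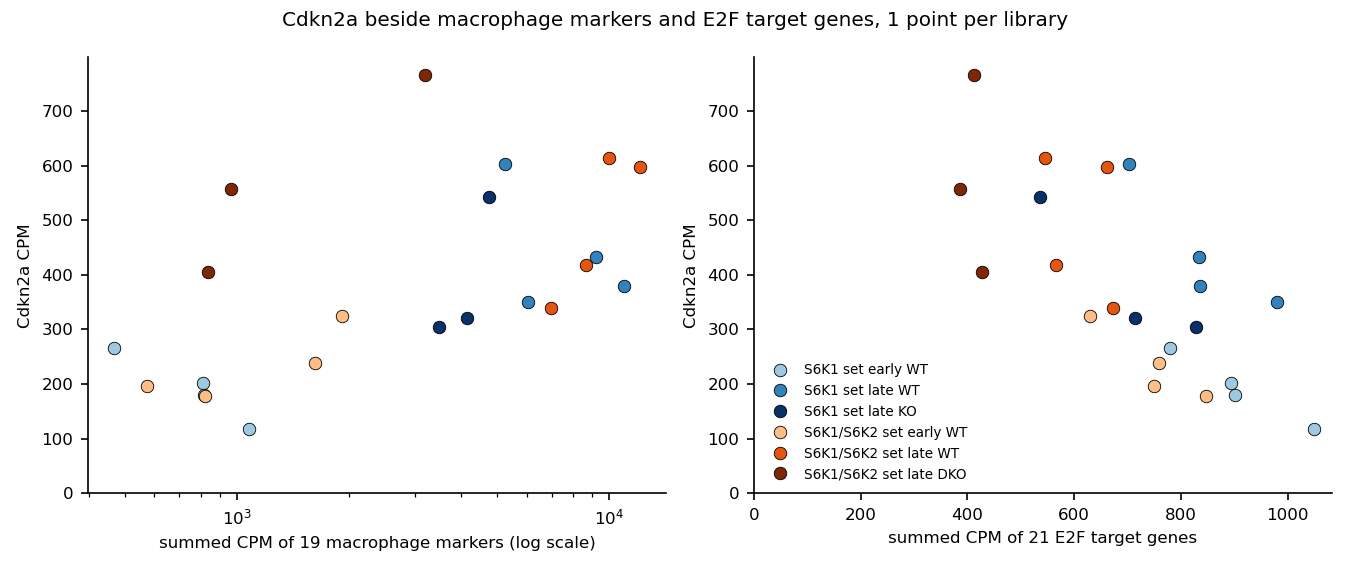
*Cdkn2a* level (CPM) in each of the 22 libraries against the summed CPM of 19 macrophage markers (left, log scale) and of 21 E2F target genes (right, linear scale from 0), coloured by group. The late DKO libraries lie at 405 to 766 CPM of *Cdkn2a* with macrophage markers at 834 to 3191 CPM, and at the lowest E2F target sums, 387 to 428 CPM.

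*Cdkn2b*, the INK4 gene beside *Cdkn2a*, was higher in late DKO than in early WT MEFs and passed no test in the S6K1 set. In the S6K1/S6K2 set it was at 89.2, 115, 112 and 117 CPM in early WT, at 159, 161, 216 and 102 CPM in late WT and at 226, 212 and 177 CPM in late DKO libraries. The late WT libraries overlapped the early ones through a single library, whereas all late DKO libraries were higher than all early ones. The log2 fold change of late WT against early WT was 0.58 (95% CI 0.17 to 0.99, edgeR adjusted *P* = 0.0612), which missed the threshold. With DESeq2 it passed (adjusted *P* = 0.0432), as it did with no filter on low counts (edgeR adjusted *P* = 0.0456) and without late WT replicate 4 (edgeR adjusted *P* = 0.00947). Late DKO exceeded early WT 1.91-fold (log2 fold change 0.93, SE 0.20, edgeR adjusted *P* = 0.0096), also without any 1 of the 11 libraries. Late DKO against late WT gave 0.35 (95% CI −0.09 to 0.79, edgeR adjusted *P* = 0.397). *Cdkn2b* in the S6K1 set was at 94.1 to 150 CPM in early WT, 105 to 147 CPM in late WT and 96 to 182 CPM in late KO libraries, and all 3 groups overlapped. The log2 fold changes there were −0.03 for late WT against early WT and 0.18 for late KO against late WT (95% CI −0.31 to 0.67, edgeR adjusted *P* = 0.821).

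*Cdkn2c*, the third INK4 gene measured, showed no change that passed in any comparison. Its group means lay between 11.8 ± 2.57 CPM (SD, n = 3) in late DKO and 17.0 ± 7.12 CPM (SD, n = 4) in early WT of the S6K1/S6K2 set, and neighbouring groups in the order of means overlapped throughout. Single libraries ran from 7.004 to 26 CPM, a spread as wide within groups as between them. Against late WT the log2 fold change was −0.10 (95% CI −0.75 to 0.54) in KO and −0.33 (95% CI −1.18 to 0.53) in DKO.

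*Cdkn1a*, a p53 target and the CIP/KIP gene most tied to arrest, was higher in late DKO than in early WT MEFs. Its levels in the S6K1/S6K2 set were 392, 463, 629 and 596 CPM in early WT, 804, 608, 841 and 574 CPM in late WT and 881, 817 and 741 CPM in late DKO libraries. Early and late WT overlapped, and all late DKO libraries were above all early WT libraries. The log2 fold change of late DKO against early WT was 0.66 (SE 0.19, edgeR adjusted *P* = 0.032), 1.58-fold, a call lost without early WT replicate 1 or 2 or DKO replicate 1 or 2 (adjusted *P* of 0.0281 to 0.107 over the 11 fits, edgeR). Late WT against early WT gave 0.47 (95% CI 0.09 to 0.86, edgeR adjusted *P* = 0.0953) and late DKO against late WT 0.19 (95% CI −0.23 to 0.60, edgeR adjusted *P* = 0.665). Its levels in the S6K1 set were 521 to 674 CPM in early WT, 450 to 728 CPM in late WT and 600 to 852 CPM in late KO libraries, all overlapping. There the log2 fold change was 0.05 with passage and 0.28 for late KO against late WT (95% CI −0.15 to 0.71, edgeR adjusted *P* = 0.665).

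*Cdkn1b*, whose p27 product accumulates in many resting cells, was at lower mean levels in late than in early groups, and passed the test only under some alternatives. The S6K1 set had 38.9, 56.3, 37.2 and 37.3 CPM in early WT, 26.1, 33.9, 25.03 and 46.4 CPM in late WT and 29.3, 24.3 and 16.9 CPM in late KO libraries. All late KO libraries were below all early WT libraries, and late WT overlapped both. Late KO against early WT gave a log2 fold change of −0.86 (95% CI −1.41 to −0.30, edgeR adjusted *P* = 0.0513), just outside the threshold, and with DESeq2 it passed (−0.85, adjusted *P* = 0.0208). It also passed in edgeR with no filter on low counts (adjusted *P* = 0.0344), with all 6 groups in the fit (adjusted *P* = 0.0411) and without late WT replicate 4 (adjusted *P* = 0.0360). In the S6K1/S6K2 set the levels were 56.1, 53.5, 39.8 and 27.6 CPM in early WT, 30.4, 28.6, 28.9 and 52.1 CPM in late WT and 31.9, 22.9 and 27.3 CPM in late DKO libraries, and the 3 groups overlapped. Late DKO against early WT gave −0.68 (edgeR adjusted *P* = 0.104), and −0.86 without early WT replicate 4 (edgeR adjusted *P* = 0.0326). Against late WT the log2 fold changes were −0.48 in KO (95% CI −1.04 to 0.07) and −0.37 in DKO (95% CI −0.97 to 0.23).

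*Cdkn1c*, which encodes the remaining CIP/KIP inhibitor p57 and is an imprinted gene, was read beside the other CDK inhibitors. In the S6K1 set it varied widely between libraries, at 104, 575, 277 and 388 CPM in early WT, 24.5, 357, 233 and 58.2 CPM in late WT and 38.5, 27 and 35.8 CPM in late KO. The KO libraries lay inside the late WT range and below all early WT libraries. The log2 fold change was −3.32 for late KO against early WT (SE 0.84, edgeR adjusted *P* = 0.0261), a call lost without early WT replicate 2 or 4 or any 1 of the KO libraries, and −2.32 for late KO against late WT (95% CI −4.05 to −0.59, edgeR adjusted *P* = 0.332). The S6K1/S6K2 set had it at 37.9 to 121 CPM in all 11 libraries, with log2 fold changes of −0.30 with passage, 0.16 for late DKO against late WT and −0.14 for late DKO against early WT, none of which passed.

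*Rb1*, which encodes pRB, rose with passage in the S6K1/S6K2 set. It was at 15.2, 15.3, 14.4 and 14.6 CPM in early WT, at 28.6, 20.1, 22.1 and 19.1 CPM in late WT and at 19.3, 21.03 and 24.8 CPM in late DKO libraries. The early libraries were close together, and all 7 late libraries were above them. Late WT exceeded early WT 1.54-fold (log2 fold change 0.63, SE 0.15, edgeR adjusted *P* = 0.0161), a call lost only without early WT replicate 1 (edgeR adjusted *P* = 0.0510). Late DKO exceeded early WT with a log2 fold change of 0.56 (SE 0.16, edgeR adjusted *P* = 0.0289). That call was lost in 6 of 11 fits, those without any of the 4 early WT libraries or without DKO replicate 2 or 3, and also with scaling by library totals (edgeR adjusted *P* = 0.0868) or without a filter on low counts (edgeR adjusted *P* = 0.0626). *Rb1* in the S6K1 set was at 19.2, 11.2, 17.7 and 13.4 CPM in early WT, at 16.5, 15.6, 16.8 and 17.2 CPM in late WT and at 17.9, 23.1 and 20.2 CPM in late KO. Every late KO library was above every late WT library there, but the log2 fold change of 0.30 did not pass (95% CI −0.11 to 0.72, edgeR adjusted *P* = 0.619). In late DKO against late WT it was −0.07 (95% CI −0.41 to 0.28). *Rb1* shares exon sequence with *Rcbtb2* and *Lpar6* on the other strand, and the strand setting of the counting is not given in the sources used here, so reads of these genes may be mixed.

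*Rbl1*, whose p107 product is made mostly in dividing cells, had lower levels in late MEFs of the S6K1/S6K2 set without passing the test. It was at 10.6, 9.002, 8.05 and 6.76 CPM in early WT, at 6.64, 4.704, 6.27 and 5.31 CPM in late WT and at 3.88, 5.81 and 6.87 CPM in late DKO libraries. The highest late WT library fell just short of the lowest early one, while 1 DKO library overlapped the early range. The log2 fold change was −0.56 with passage (95% CI −1.04 to −0.07, edgeR adjusted *P* = 0.112) and −0.62 for late DKO against early WT (95% CI −1.15 to −0.09, edgeR adjusted *P* = 0.095). *Rbl1* in the S6K1 set was at 6.78 to 10.5 CPM in early WT, 7.2 to 9.52 CPM in late WT and 4.92 to 9.69 CPM in late KO libraries. Against late WT the log2 fold change was −0.31 in KO (95% CI −0.89 to 0.28) and −0.06 in DKO (95% CI −0.59 to 0.47).

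*Rbl2*, whose p130 product is the RB family member of resting cells, did not pass in any comparison. Its group means were 17.6 ± 4.26 CPM in early WT and 21.8 ± 1.98 CPM in late WT (SD, n = 4 each) and 21.5 ± 3.17 CPM in late KO (SD, n = 3) of the S6K1 set. Those of the S6K1/S6K2 set were 21.7 ± 4.6 and 23.4 ± 4.18 CPM (SD, n = 4 each) and 24.7 ± 7.53 CPM in late DKO (SD, n = 3). *Rbl2* overlaps exons of *Aktip* on the other strand, with the same limit as for *Rb1*. Read as a ratio within each library, *Rbl1* to *Rbl2* on the log2 scale was −1.06 ± 0.19, −1.40 ± 0.20 and −1.73 ± 0.45 in early WT, late WT and late KO of the S6K1 set (SD, n = 4, 4 and 3). For the S6K1/S6K2 set it was −1.33 ± 0.14, −2.02 ± 0.43 and −2.16 ± 0.21 in early WT, late WT and late DKO (SD, n = 4, 4 and 3). On average p107 transcripts were thus lower relative to p130 transcripts in late than in early groups of both sets, which is a description without a test. The ratio of *Rbl1* to *Rb1* was −0.81 ± 0.24 in early WT and −1.97 ± 0.16 and −2.01 ± 0.26 in late WT and late DKO of the S6K1/S6K2 set. All 7 late libraries of that set lay below all 4 early ones in this ratio, and *Rb1* alone was higher in the same 7 libraries. In the S6K1 set all 3 groups overlapped in the ratio of *Rbl1* to *Rb1*. Early WT libraries there were at −1.06 to −0.66, late WT at −1.16 to −0.85 and late KO at −2.06 to −0.89.

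**Figure D3:**
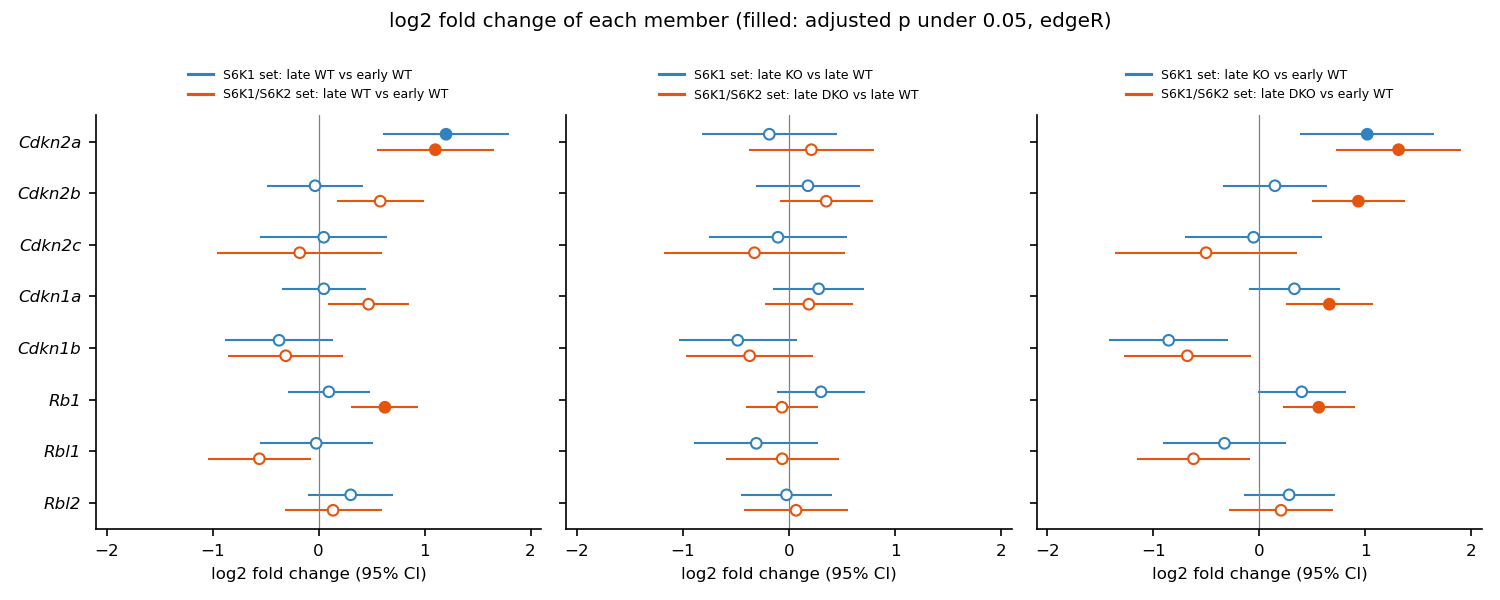
log2 fold change of the 8 genes in the 6 comparisons, with 95% confidence intervals (edgeR). Blue stands for the S6K1 set, orange for the S6K1/S6K2 set, and filled points passed an adjusted *P* of 0.05. In the middle panel, KO or DKO against late WT, none of the 16 points is filled.

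Counted over the genes matched, 1 of 8 was called between late and early WT of the S6K1 set, where 12.9% of all 14132 genes tested were called, 6.96% higher and 5.97% lower. For the S6K1/S6K2 set 2 of 8 were called for passage, both higher, against 13.2% of 14365 genes, 8.28% higher and 4.89% lower. The first share is close to its background, and the second rests on 2 genes. Between late KO and late WT 0 of 8 were called with edgeR, against 0.0425% of all genes (0.00708% higher and 0.0354% lower). An unadjusted *P* under 0.05 (edgeR) was reached by 0 of 8, against 1499 of 14132 genes. DESeq2 called 0 of 8, against 250 of 14825 genes. At these shares, 0 of 8 says little about these genes in particular. Between late DKO and late WT 0 of 8 were also called with edgeR, against 4.78% of all genes (0.821% higher and 3.95% lower). An unadjusted *P* under 0.05 (edgeR) was reached by 0 of 8, against 2643 of 14365 genes. DESeq2 called 0 of 8, against 1172 of 15781 genes. At these shares, too, 0 of 8 says little about these genes in particular. Between late KO and early WT 1 of 8 was called, higher, against 11.2% (5.93% higher and 5.24% lower), and between late DKO and early WT 4 of 8, all higher, against 18.3% (9.34% higher and 8.92% lower). The 4 were *Cdkn2a*, *Cdkn2b*, *Cdkn1a* and *Rb1*. Without S6K1/S6K2 early WT replicate 1, 0 of 8 passed for passage in that set, and without early WT replicate 1 or 2 or DKO replicate 2, 2 of 8 passed for late DKO against early WT.

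Differences between the sets were tested as interactions over all 22 libraries. For the effect of passage in WT, 0 of 8 were called with edgeR, 1 had an unadjusted *P* under 0.05 and 0 were called with DESeq2. Of all 14886 genes, edgeR called 0.712%, and 1421 had an unadjusted *P* under 0.05. DESeq2 called 218 of 17647 genes. The largest difference was that of *Cdkn2b*, 0.58 on the log2 scale (95% CI −0.03 to 1.20, edgeR adjusted *P* = 0.552), followed by *Rbl1* at −0.57 (95% CI −1.25 to 0.11) and *Rb1* at 0.50 (95% CI 0.03 to 0.96, edgeR adjusted *P* = 0.488). *Cdkn2a* differed by −0.13 (95% CI −0.95 to 0.68). The passage effects on *Cdkn2b* and *Rb1* were thus not shown to differ between the sets. For DKO against late WT less KO against late WT, 0 of 8 were called with edgeR, 0 at an unadjusted *P* under 0.05 and 0 with DESeq2. Of all genes, edgeR called 0.00672%, and 1626 of 14886 had an unadjusted *P* under 0.05. DESeq2 called 63 of 15858 genes. The difference for *Cdkn2a* was 0.41 (95% CI −0.47 to 1.29).

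The genes around the inhibitors were followed in 7 lists with 81 genes, of which 80 were tested. The lists, too, were chosen with earlier results of these data known. Of all genes, 12.9% were called for passage in the S6K1 set and 13.2% in the S6K1/S6K2 set. Late KO and late DKO had 0.0425% and 4.78% against late WT, and 11.2% and 18.3% against early WT. Passage had 3896 of 14132 and 4457 of 14365 genes at an unadjusted *P* under 0.05 (edgeR). DESeq2 called 2592 of 17513 and 2744 of 16334. Late KO and late DKO against late WT had 1499 and 2643 at that unadjusted *P*. DESeq2 called 250 of 14825 and 1172 of 15781 there. Against early WT they had 4029 and 4815, and DESeq2 called 2571 of 15900 and 3356 of 16334. A count of 1 or 2 genes in a list is given as a description and not as a result about that list. Cyclin and CDK genes of G1 and S phase (10 tested) had 0 called for passage in the S6K1 set with edgeR (1 at an unadjusted *P* under 0.05, 1 with DESeq2). In the S6K1/S6K2 set 1 was called, *Ccna2*, the S phase partner of CDK2, which fell from 44.6 ± 11 to 26.5 ± 3.14 CPM (SD, n = 4 each; log2 fold change −0.72, edgeR adjusted *P* = 0.0189). *Ccna2* was lower again in late DKO, at 15.7 ± 1.02 CPM (SD, n = 3; −0.78 against late WT, edgeR adjusted *P* = 0.0421), the only gene of its list called there. That last call was lost without any 1 of the libraries except early WT replicate 4 and late WT replicate 3. Between late DKO and early WT 6 of 10 were called. Both D cyclins among them rose, *Ccnd1* by a log2 fold change of 1.15 and *Ccnd2* by 0.99, while *Ccna2* (−1.50), *Cdc25a* (−0.96) and *Cdk2* (−0.62) had the largest falls. Of the 10, the S6K1 set had 0 called for late KO against late WT (0 at an unadjusted *P* under 0.05, 0 with DESeq2) and 0 against early WT (4 and 1).

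The products of E2F target genes copy DNA and supply its building blocks. These genes were lower in late DKO than in late WT MEFs in 7 of 21 cases, with none higher. Of all genes, 3.95% were lower there and 0.821% higher. The median log2 fold change of the 21 was −0.64, against −0.01 over all genes, and all 21 values were below 0. The lowest were *Cdt1*, a replication licensing factor (5.4 ± 0.654 CPM in 3 DKO libraries and 14.1 ± 2.83 CPM in 4 late WT libraries, mean ± SD; −1.40, edgeR adjusted *P* = 0.00385), *Mcm5*, a subunit of the replicative helicase (−1.20, edgeR adjusted *P* = 0.0156), and *Uhrf1*, which guides maintenance DNA methylation (−1.02, edgeR adjusted *P* = 0.0103). Without DKO replicate 2 only 1 of the 21 was called, and without DKO replicate 3 or late WT replicate 2 it was 4. DESeq2 called 11 of the 21, and 1172 of all 15781 genes it tested. Against early WT 17 of 21 were lower in late DKO (median −0.95), led by *Tk1* (−1.90), *Mcm5* (−1.73) and *Uhrf1* (−1.66). With passage in WT of that set 2 of 21 were lower, *Uhrf1* (−0.64) and *Tyms* (−0.61), against 4.89% of all genes. That count ran from 0 without early WT replicate 1 to 5 without early WT replicate 4. The summed E2F target genes were at 387 to 428 CPM in late DKO and 546 to 673 CPM in late WT libraries, and macrophage markers were lower in the same DKO libraries. Their part in this result was not tested.

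E2F target genes of the S6K1 set had a median of −0.18 with passage, with 0 called (0 at an unadjusted *P* under 0.05, 0 with DESeq2). For late KO against late WT the median was −0.39, 20 of 21 values were below 0 and 0 were called with edgeR (2 at an unadjusted *P* under 0.05, 0 with DESeq2). Against early WT 1 was lower in late KO, *Rfc4*, a subunit of the clamp loader (−1.11, edgeR adjusted *P* = 0.0378), and DESeq2 called 4. The difference between the sets in the effect of genotype was called for 0 of 21 with edgeR (3 at an unadjusted *P* under 0.05, 0 with DESeq2). Of all genes, edgeR called 0.00672% in that interaction, and 1626 of 14886 had an unadjusted *P* under 0.05. DESeq2 called 63 of 15858 there. The median difference of the 21 was −0.38, against −0.01 over all genes, and 18 of 21 were below 0. The effects in DKO and in KO were thus neither shown to differ nor shown to be alike.

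**Figure D4:**
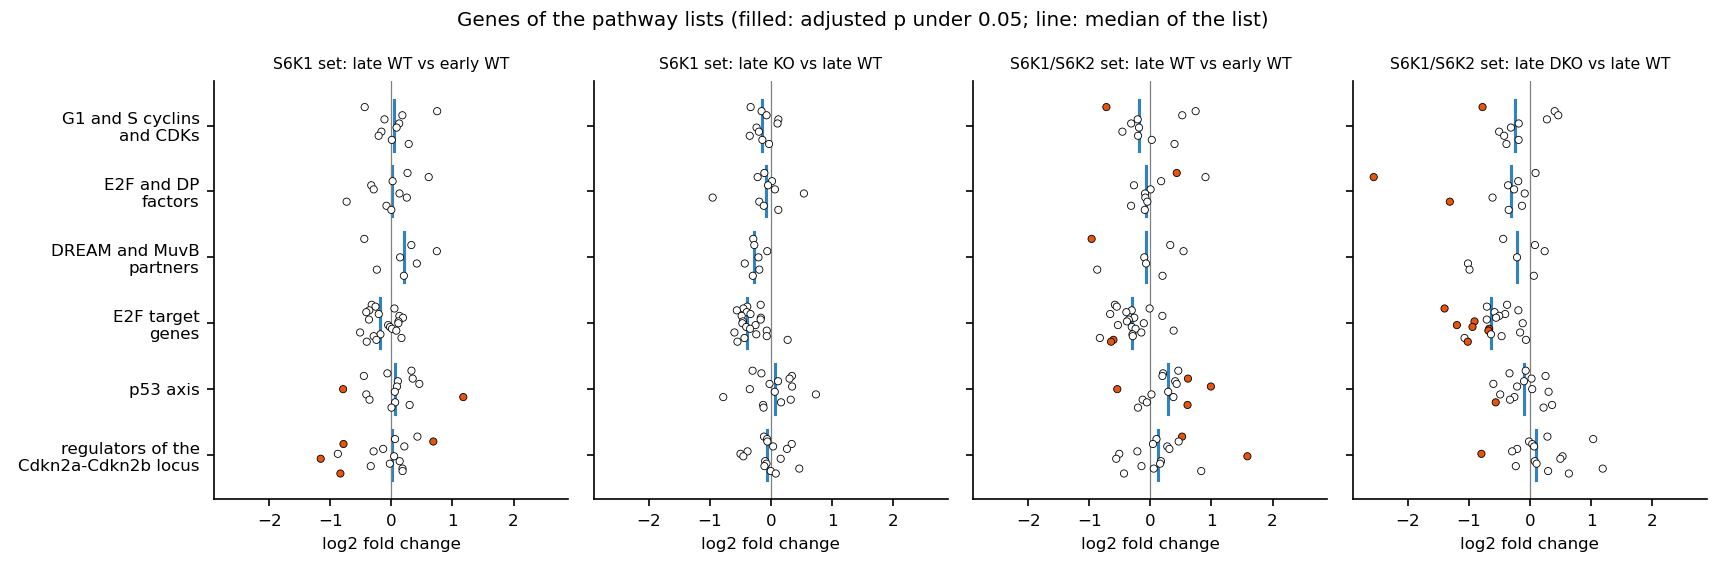
log2 fold changes of the genes of 6 pathway lists in 4 comparisons, 1 point per gene, filled where the adjusted *P* was under 0.05 (edgeR), with a line at the median of each list. For E2F target genes in late DKO against late WT all 21 points lie below 0 and 7 are filled.

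Among the E2F and DP factors (10 tested), *E2f2* and *E2f8* were lower in late DKO than in late WT (log2 fold changes −2.56, adjusted *P* = 0.0143, and −1.31, edgeR adjusted *P* = 0.0356). *E2f2* averaged 0.55 ± 0.336 CPM in those DKO libraries (SD, n = 3), a low level. Against early WT 5 of 10 were called in late DKO. *E2f1*, an activator, rose by 0.52, while *E2f2* (−1.66), *E2f8* (−1.36) and *E2f4* (−0.63), the main partner of p130 and p107, were the lowest of the 4 that fell. Without DKO replicate 2 the count of factors called was 0 against late WT and 1 against early WT. *E2f1* was also the only factor called for passage in WT of that set (0.43, edgeR adjusted *P* = 0.0478), a call lost with RLE scaling, with library totals alone and without 9 of 11 libraries. The S6K1 set had 0 called with passage (1 at an unadjusted *P* under 0.05, 0 with DESeq2), 0 for late KO against late WT (1 and 0) and 0 for late KO against early WT (2 and 1). DREAM and MuvB genes, which cooperate with p130 and p107 in repression or with B-Myb and FoxM1 in activation, had 4 of 7 called between late DKO and early WT. *Mybl2* (−1.86), *Foxm1* (−1.40) and *Lin9* (−1.08) were lower, and *Lin52* was higher (0.78). Only 2 of 7 were called there without any 1 of early WT replicates 1 to 3 or of the 3 DKO libraries. With passage in that set *Foxm1* alone was called (−0.96, edgeR adjusted *P* = 0.0449), and 0 were called without any 1 of 7 libraries. For late DKO against late WT 0 of 7 were called (2 at an unadjusted *P* under 0.05, 1 with DESeq2), and in the S6K1 set 0 in the 3 comparisons (2, 0 and 1 at an unadjusted *P* under 0.05, 0 each with DESeq2).

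Genes of the p53 axis (15 tested, *Cdkn1a* not counted) rose in part with passage in the S6K1/S6K2 set. *Mdm2*, the negative regulator of p53 and itself a p53 target, averaged 250 ± 28.1 CPM in late WT and 128 ± 39.7 CPM in early WT libraries (SD, n = 4 each; log2 fold change 0.99, edgeR adjusted *P* = 0.00536), and *Ccng1* (0.62) and *Trp53inp1* (0.61), also p53 targets, were higher. *Mdm4*, the related p53 inhibitor, was lower (−0.54, edgeR adjusted *P* = 0.045). In late DKO against early WT 5 were higher, led by *Trp53inp1* (0.97), *Mdm2* (0.78) and *Ccng1* (0.64), and *Trp53* itself was lower (−0.62, edgeR adjusted *P* = 0.0127). *Trp53* was also the only gene of the list called in late DKO against late WT (−0.56, edgeR adjusted *P* = 0.045), a call that held only without late WT replicate 3. Without early WT replicate 1 the list had 1 gene called for passage and 3 for late DKO against early WT, and without DKO replicate 2 it had 2 for the latter. In the S6K1 set *Sesn1* was higher with passage (1.18, edgeR adjusted *P* = 0.00242) and *Mdm4* lower (−0.79, edgeR adjusted *P* = 0.00148). *Mdm4* was lower in late KO than in early WT as well (edgeR adjusted *P* = 0.000744), and 0 of 15 were called for late KO against late WT (3 at an unadjusted *P* under 0.05, 0 with DESeq2).

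Known regulators of the *Cdkn2a*-*Cdkn2b* locus (16 tested) include Polycomb proteins, which silence it, and factors such as Ets and Id proteins that act on it in either direction. *Ezh2*, the Polycomb methyltransferase, was lower in late DKO than in late WT, at 13.4 ± 1.3 against 23.1 ± 5.8 CPM (SD, n = 3 and 4; log2 fold change −0.79, edgeR adjusted *P* = 0.0428), and the only one of the 16 called there, a call lost without 9 of the 11 libraries. It was lower than in early WT in late DKO (−1.30, edgeR adjusted *P* = 0.00169) and in late KO (−1.37, edgeR adjusted *P* = 0.0169). *Id1*, which encodes an inhibitor of Ets and other factors, was higher with passage in the S6K1/S6K2 set (166 ± 39.7 against 56.4 ± 8.91 CPM, SD, n = 4 each; 1.59, edgeR adjusted *P* = 0.000414), as was *Bmi1*, a Polycomb gene (0.52, edgeR adjusted *P* = 0.0179). In late DKO against early WT 4 were higher, led by *Id1* (log2 fold change 2.12), *Cbx7* (2.20-fold) and *Tbx3* (log2 fold change 1.13), and *Ezh2* and *Ets2* (−0.50) were lower. In the S6K1 set *Cbx8* was higher with passage (0.69), and *Kdm6b* (−1.16), *Twist1* (−0.84) and *Dmtf1* (−0.78) were lower. In late KO against early WT *Cbx8* was higher (0.63), and *Ezh2*, *Kdm6b* (edgeR adjusted *P* = 0.0449) and *Twist1* (−0.76) were the lowest of 4 that fell, a count of 5 called in all that dropped to 1 without any 1 of the KO libraries. For late KO against late WT 0 of 16 were called (2 at an unadjusted *P* under 0.05, 0 with DESeq2).

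The 7 lists together had 6 of 80 genes called for passage in the S6K1 set, against 12.9% of all genes. In the S6K1/S6K2 set they had 11, against 13.2%. Late KO against late WT had 0 (0.0425% of all genes) and late DKO against late WT 12 (4.78%). Against early WT there were 8 in late KO (11.2%) and 44 in late DKO (18.3%). The counts for passage and for late KO against early WT were thus close to or below the background. In the S6K1/S6K2 set the passage count ran from 2 without early WT replicate 1 to 17 without early WT replicate 4, and the count of late DKO against late WT was 1 without DKO replicate 2 and 5 without DKO replicate 3. Macrophage markers were higher with passage in 19 of 19 cases in the S6K1 set and 18 of 19 in the S6K1/S6K2 set, and lower in 18 of 19 cases in late DKO than in late WT. For late KO against late WT 0 of 19 were called with edgeR, 13 had an unadjusted *P* under 0.05 and 4 were called with DESeq2, all 19 values were below 0 and their median was −0.87. Mesothelial and epithelial markers (6 tested) fell in 3 cases with passage in each set, led by *Msln* (−3.77 and −5.60), and summed to at most 119 CPM in any library. Fibroblast markers had 3 and 2 of 10 lower with passage, *Col1a1* (−0.87 and −1.40) and *Col1a2* (−1.01 and −0.89) in both sets. The part of these cell markers in the results on the inhibitors was not tested.

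For each gene the 3 genes most alike in log2 CPM over the 22 libraries were listed from 12476 candidates, as a description of libraries that share group, passage and cell makeup. *Cdkn2a* was closest to *R74862* (Pearson r 0.92), *Ctsf* (0.91), a lysosomal protease gene, and *Mien1* (0.90). *Cdkn2b* and *Cdkn1a* shared *Phlda3*, a p53 target (0.87 and 0.85), and *Cdkn2b* itself was among the 3 genes closest to *Cdkn1a* (0.84). *Rbl1* was closest to *Anln* (0.86) and *Foxm1* (0.84), both genes of dividing cells, and *Nup155* (0.83). *Cdkn2c* was near *Anapc5*, *Samd9l* and *Nuf2* (0.78 each), and *Cdkn1b* near *Prrg1*, *Khdrbs1* and *Aldh1l2* (0.84 to 0.87). *Rb1* was near *Efna3*, *Abhd4* and *Sirt2* (0.85 to 0.89), and *Rbl2* near *Elmo2*, *Septin8* and *Elac1* (0.83 each).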

How the data were processed

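Polyadenylated RNA of serially passaged MEFs was sequenced as stranded, single-end libraries. The deposited values are raw counts per gene, not normalized, for 55401 identifiers in 22 libraries. The study's methods name CASAVA, TopHat, mm9 and HTSeq, whereas the submitters' processing notes name CASAVA, STAR 2.7.1a, mm10 and DESeq2 1.28.1. Of the identifiers, 22812 are absent from an NCBIM37 (mm9) annotation, so coordinates were taken from RefSeq GRCm38.p6. The strand setting of the counting is not given in the sources used here. A table of symbols named 32589 identifiers, carrying 96.98% of the counts. Exon lengths came from GENCODE vM1.

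The counts were read into R 4.3.3 and edgeR 4.0.16. After the default filterByExpr filter and TMM scaling, a robust quasi-likelihood model was fitted to the 3 groups of each set together and each comparison was an F test in it. *P* values were adjusted over all genes tested by the Benjamini-Hochberg method, with a threshold of 0.05. Standard errors were taken from the fold change and F. Interactions were fitted over all 22 libraries. Levels are CPM scaled over the 22 libraries. Each library is 1 replicate. Depth was 10742454 to 17314832 counts per library, and members had 46 or more counts in every library. The scripts were tested on simulated data.

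The members and gene lists were chosen with earlier results of these data known, and were named by rule: all members, the targeted genes and *Cdkn1c* in each comparison, up to 3 called genes per direction and list, and the 3 genes most alike each member. Alternatives were DESeq2 1.42.0, RLE scaling, library totals alone, no filter on low counts, the Y-linked genes as a covariate, fits on 2 or all 6 groups and each library left out.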

Additional observations from a re-analysis of the deposited data

Results flagged for a closer look

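Of 32 combinations of a member and a group of 4 libraries, 4 held a library set apart from the other 3 by Dixon's criterion, and chance flags about 1 in 20 such groups. *Cdkn1b* in early WT of the S6K1 set had a gap of 0.909 of the range, with 1 library at 56.3 CPM and the others at 37.2 to 38.9 CPM. In late WT of the S6K1/S6K2 set the gap for *Cdkn1b* was 0.925, with 1 library at 52.1 CPM above the others at 28.6 to 30.4 CPM. *Rbl2* in late WT of the S6K1 set had 1 library at 24.7 CPM above the others at 20.5 to 21.03 CPM (gap 0.871). *Cdkn2b* in early WT of the S6K1/S6K2 set had 1 library at 89.2 CPM below the others at 112 to 117 CPM (gap 0.836).

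The rise of *Id1* with passage in WT MEFs differed between the sets by 1.51 on the log2 scale (standard error 0.26, adjusted *P* = 0.00429, edgeR interaction over 22 libraries), larger in the S6K1/S6K2 set. *Rps6kb2* differed between the sets in the effect of genotype by −4.24 (standard error 0.37, adjusted *P* = 4.01e-06, edgeR), as the gene is deleted in DKO MEFs alone.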

How the results depend on the processing

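Of 880 values refitted with 1 library left out, 801 kept their direction and their side of the threshold, as did 399 of 416 under the other alternatives. The count of members called in late KO against early WT (1) was 0 with the Y-linked covariate or with only the 2 groups compared, 2 with no filter, DESeq2 or all 6 groups, and 0 to 1 with a library left out. With a library left out the count was 0 to 3 for S6K1/S6K2 passage and 2 to 4 for late DKO against early WT. The pathway lists had 13 genes called for S6K1 passage (6) and 1 for late KO against late WT (0) with the Y-linked covariate. Late KO against early WT (8) had 5 with that covariate, 15 with DESeq2, 14 with all 6 groups and 2 to 9 with a library left out. With DESeq2, S6K1/S6K2 passage (11) had 17 and the interactions 2 for passage (1) and 1 for genotype (0). Of all genes, DESeq2 called 2744 of 16334 for S6K1/S6K2 passage, where edgeR called 1892 of 14365. For late KO against early WT it called 2571 of 15900, where edgeR called 1578 of 14132. In the interactions it called 218 of 17647 and 63 of 15858, where edgeR called 106 and 1 of 14886. Shares of all genes under the other settings are not given here. With a library left out the lists had 2 to 17 for S6K1/S6K2 passage, 1 to 14 for late DKO against late WT (12) and 25 to 44 for late DKO against early WT (44). The cause of these shifts was not tested.

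Sign changes occurred in values that had passed no test. For S6K1 passage, *Cdkn2b* was 0.00500 on the log2 scale with only the 2 groups compared, and *Rbl1* was 0.00119 with RLE scaling, 0.10 with the Y-linked covariate, 7.56e-05 with DESeq2 and 0.016 with only the 2 groups compared. The interaction for *Cdkn1b* with passage was −0.034 with library totals alone, and the genotype interactions of *Cdkn1a* and *Cdkn1b* were 0.15 and −0.27 with the Y-linked covariate. With a library left out, S6K1 passage ran from −0.120 to 0.071 for *Cdkn2b*, −0.14 to 0.18 for *Cdkn2c*, −0.022 to 0.17 for *Cdkn1a*, −0.031 to 0.25 for *Rb1* and −0.11 to 0.14 for *Rbl1*. Late KO against late WT ran from −0.038 to 0.38 for *Cdkn2b*, −0.37 to 0.18 for *Cdkn2c* and −0.11 to 0.094 for *Rbl2*, and against early WT from −0.067 to 0.39 for *Cdkn2b* and −0.29 to 0.24 for *Cdkn2c*. S6K1/S6K2 passage ran from −0.48 to 0.088 for *Cdkn2c*. Late DKO against late WT ran from −0.040 to 0.41 for *Cdkn2a*, −0.17 to 0.080 for *Rb1*, −0.26 to 0.14 for *Rbl1* and −0.21 to 0.24 for *Rbl2*, and against early WT from −0.088 to 0.35 for *Rbl2*. The passage interaction ran from −0.32 to 0.065 for *Cdkn2a*, −0.55 to 0.023 for *Cdkn2c* and −0.23 to 0.24 for *Cdkn1b*. The genotype interaction ran from −0.035 to 0.41 for *Cdkn2b*, −0.48 to 0.083 for *Cdkn2c*, −0.21 to 0.057 for *Cdkn1a*, −0.084 to 0.38 for *Cdkn1b* and −0.18 to 0.28 for *Rbl2*. Where a comparison did not pass, differences of any size inside its 95% interval were not excluded with 3 or 4 libraries a group. No paired analysis was possible because the labels number no replicates across groups.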

Other observations

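Within groups, *Cdkn2a* and *Cdkn2c* tended to stand at opposite ends, a pattern noticed after the values were seen and given without a test. The library with the highest *Cdkn2a* level was also the one with the lowest *Cdkn2c* level in 4 of 6 groups, and the library with the lowest *Cdkn2a* had the highest *Cdkn2c* in 4 of 6. In late WT of the S6K1/S6K2 set the library at 615 CPM of *Cdkn2a* had 7.004 CPM of *Cdkn2c*, and the library at 340 CPM had 22.7 CPM. In early WT of that set the library at 324 CPM had 10.4 CPM of *Cdkn2c*, and the library at 178 CPM had 26 CPM. In every group the library lowest in *Cdkn2a* had the highest sum of E2F target genes. The library highest in *Cdkn2a* had the lowest sum in every group except late DKO. In late WT of the S6K1/S6K2 set these sums were 673 and 546 CPM. This, too, is given without a test.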
